A study of Mus musculus with 4 samples.

Results

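The 300 transcripts described here (the members) carry the deposited type retained_intron and had the highest counts of that type, summed over the 4 libraries of the series. They were taken from 7341 rows of that type among 37539 transcripts in all, and they were chosen by those summed counts alone. A retained_intron transcript is, in the Ensembl and GENCODE annotation, a noncoding model of a protein-coding or other gene that keeps intronic sequence relative to its other transcripts. In mammals many introns of genes for splicing factors and their kinases are spliced slowly, and the unspliced RNA stays in the nucleus, is degraded, or is completed later. Neurons are known for such nuclear pools. A count on such a row need not come from a retained intron, because reads from a shared exon, from intronic RNA of the precursor, or from a repeat inside the intron fall on it too.

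Cortical RNA was sequenced from 2 male APP/PS1 transgenic mice (here APP), a model of AD that carries a mutant human APP transgene and a further mutant transgene, and from 2 male WT mice. All 4 mice were 12 months old and of strain C57BL/6 by their labels (the WT controls were C57BL/6J by the study's methods), and the strand-specific libraries were made after ribosomal RNA depletion. The libraries are named APP-3, APP-4, WT-1 and WT-2 after their columns, and they held 28525117, 31392983, 43881196 and 35623228 counts. In the transgenic line both transgenes are driven by the mouse Prnp promoter, so expression is not restricted to neurons. The App row rose in APP (log2 fold change 1.53, SE 0.07, adjusted p = 6.93e-10), and so did the coding row of Prnp (1.72, SE 0.07, adjusted p = 3.39e-10). Rows were compared by the quasi-likelihood test of edgeR, with Benjamini-Hochberg adjustment over all 37539, and a row was called when its adjusted p was below 0.05 and it had changed 1.5-fold or more.

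The 10 cortical neuron markers had summed CPM (counts normalised to library size, with TMM scaling) between 3750 and 4649 in all libraries. Snap25 was the highest of them, at 1967 and 1706 CPM in APP and 2003 and 2027 in WT. The 5 counted hypothalamic genes summed to 3.93 and 5.97 CPM in APP and to 0.478 and 0.367 in WT. The 6 striatal genes summed to 134 and 293 CPM in APP and to 197 and 219 in WT. The part of neighbouring tissue in these values was not tested. Of 12 microglial genes 8 were called and all 8 rose, as did 2 of 7 astrocyte genes, 1 of 8 oligodendrocyte genes and 3 of 5 counted hypothalamic genes, while 1 of 8 immediate-early genes fell. Of 10 cortical neuron, 6 interneuron, 6 endothelial, 3 counted choroid plexus, 6 striatal and 5 thalamic genes, 0 were called. The microglial genes summed to 556 and 693 CPM in APP and to 332 and 334 CPM in WT. In bulk tissue, fewer cells of a type and less RNA per cell cannot be told apart.

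By identifier, 297 of the 300 transcripts were found in GENCODE M21 (GRCm38), in 248 genes. That annotation also calls 288 of them retained_intron, but 6 protein_coding, among them the most abundant row. With the deposited symbols of the remaining 3 (Grik2, Atp11b and Pi4ka), they come from 251 host genes, of which 216 gave 1 transcript and 35 gave 2 to 5. Ank2 and R3hdm1 gave 5 each, Adgrb3 gave 4, and Arpp21, Celf2, Tia1 and Tpi1 were among those that gave 3 each. Transcripts of the same gene share exons, so their counts are not independent. The table gives a gene symbol for 191 of the 300 and leaves 109 without a symbol.

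What the rows hold was read from the exon structures. An intron of a protein-coding transcript of the same gene lay complete inside an exon of 126 of the 297 transcripts, or 42.4%, and 171 held no complete intron. Models of the latter kind can run on past a splice site, or begin or end inside an intron, and how many do was not counted. Among the other 6832 retained_intron rows found in M21, 2159 held a complete intron, or 31.6%. The median length of the 297 was 3379 bases (308 to 17063), against 1160 bases for the others, and since counts grow with length the choice by counts favours long rows. A median of 29.4% of a member's bases was shared with exons of transcripts of other types of the gene (quartiles 13.6% and 57.1%), against 50.5% among the other rows. For most rows the larger part of the sequence was thus not exonic in transcripts of other types, while 42 rows were over 80% shared.

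**Figure D1:**
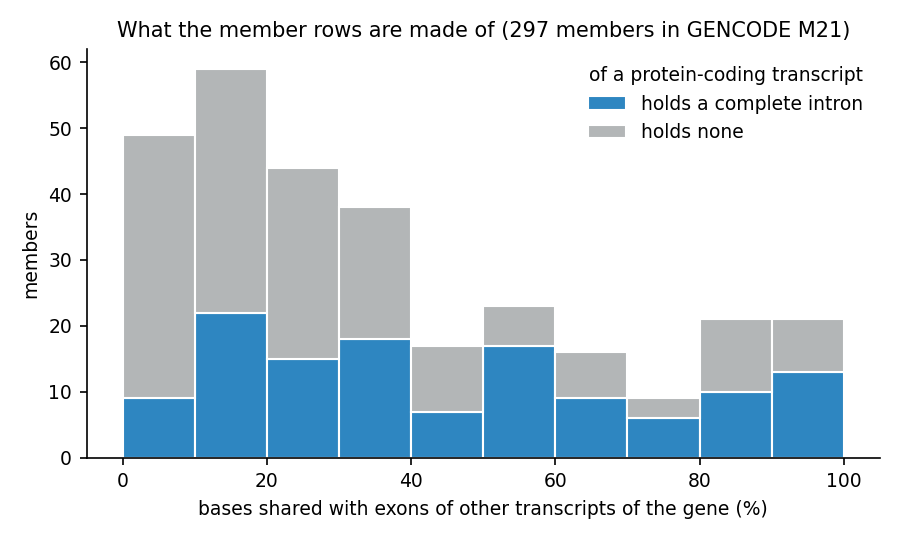
Number of the 297 transcripts found in GENCODE M21 (y axis) by the percentage of their bases shared with exons of transcripts of other types of the same gene (x axis, bins of 10 percentage points). Blue bars count the 126 that hold a complete intron of a protein-coding transcript and grey bars the 171 that hold none, and 108 of the 297 lie under 20%.

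The 126 transcripts held 211 different introns, of which 207 began with GT and ended with AG, or 98.1%. Overlapping and nested annotated introns were counted separately, so some sequence enters these values repeatedly. Over the 211 the median length was 803 bases (quartiles 269 and 1658), and the median GC content 39.2% (quartiles 35.6% and 45.6%). The 3369 introns held by the other retained_intron rows were 326 bases long and 50.1% GC at the median. The strong donor hexamers GTAAGT and GTGAGT opened 48 of the 211, or 22.7%, and 23.4% of the introns in the other rows. Lengths of 67 of the 211, or 31.8%, were multiples of 3.

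The splice sites below belong to introns held by rows that are described later. They lie in 2 rows of Arpp21, of which ENSMUST00000159432 was called and ENSMUST00000159183 was not. The others lie in rows of the kinases Clk1 and Clk4, which were not called. Counts were compared over whole rows, so no result was measured on these introns. The sites were read from the M21 transcript sequences. Each 5′ site gives the last 3 exon bases and the first 12 intron bases with the first 6 intron bases in capitals, and each 3′ site the last 16 intron bases and the first 3 exon bases with the terminal AG in capitals. The intron in ENSMUST00000159432 of Arpp21 lies at chr9:112155517-112157689 (GRCm38, minus strand, 2173 bases, the longer of 2 annotated introns there that share the 5′ site), and that in ENSMUST00000159183 at chr9:112187767-112187860 (minus strand, 94 bases).
Arpp21, intron of 2173 bases, 5′ site: cagGTTGGTtctcaa
Arpp21, intron of 2173 bases, 3′ site: tttctctgttcagcAGaac
Arpp21, intron of 94 bases, 5′ site: ctgGTCATTagtatt
Arpp21, intron of 94 bases, 3′ site: gttcttcttctttcAGgtt
Clk1, intron of 871 bases, 5′ site: gggGTATGAgtgcct
Clk1, intron of 871 bases, 3′ site: cacttgacgtgtccAGaag
Clk4, intron of 1055 bases, 5′ site: tcgGTATGAgtggtt
Clk4, intron of 1055 bases, 3′ site: ccacttgccgttccAGaag
Clk1, intron of 387 bases, 5′ site: gatGTATAGaatatt
Clk1, intron of 387 bases, 3′ site: tattcctcttttttAGatg
Clk4, intron of 391 bases, 5′ site: gatGTATAGaatatt
Clk4, intron of 391 bases, 3′ site: ctctcccttactttAGatg

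In Clk1 (chr1:58419734-58420120 and chr1:58420212-58421082, minus strand) and in Clk4 (chr11:51272023-51273077 and chr11:51273169-51273559, plus strand) the abundant row held, among its introns, a pair of neighbouring ones with an exon of 91 bases between them, in both paralogues. The 5′ sites of the later introns were identical over 15 of 15 bases, and those of the earlier introns over 11 of 15, with the same capitals GTATGA. The 3′ sites matched at 12 and 11 of 19 bases. The intron lengths differed less in the later pair (387 and 391 bases) than in the earlier pair (871 and 1055 bases).

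The abundance of the 300 was steeply graded. The most abundant row, ENSMUST00000144826 of Noct (deposited under its older symbol CCRN4L), at chr3:51240206-51251624 on the plus strand, had 81071 and 69933 counts in the APP libraries and 96861 and 90897 in the WT libraries. Noct encodes nocturnin, a rhythmically expressed phosphatase of NADP(H). This row alone held 20.1% of the counts of the 300, and the second held 53377 summed counts against 338762. Its CPM was 2531 ± 405 in APP and 2382 ± 261 in WT (SD, n = 2), with APP-3 highest at 2818 and WT-1 lowest at 2197, so the groups overlapped. It is 9797 bases long and holds 2 annotated introns, of which 1, of 3952 bases, begins with GT and ends with AG, while the other is a gap of 31 bases that begins with AT and ends with AA. It took between 98.5% and 99.0% of the counts of its symbol in each library, and the coding row of Noct between 26.4 and 32.5 CPM. Over 22.0% of its length it was at least 93% identical, in stretches of at least 100 bases, to transcripts of 14 other counted genes.

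The next rows were ENSMUST00000161624 of Fgd4, an activator of the GTPase Cdc42, with 381 ± 26.0 CPM in APP and 386 ± 22.8 in WT, and a row of the predicted gene Gm43190 with 361 ± 14.6 and 364 ± 12.1 CPM. By the same measure 68.7% of the Fgd4 row and 58.9% of the Gm43190 row resembled other counted genes. The most counted of the genes similar to the Fgd4 row was Gm17131, with 257536 summed counts and 93.3% identity over 2116 bases. Reads could be assigned to either where mismatches were allowed, so the levels of these 3 rows are uncertain. Of the 297 rows, 78 resembled at least 1 other counted gene, 38 resembled 10 or more, and 219 resembled 0. The median log2 fold change was 0.0011 in the 219 and -0.0039 in the 78.

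Abundant rows without such similarity included those of Synj1, the synaptic phosphoinositide phosphatase synaptojanin 1 (163 ± 9.34 CPM in APP, 172 ± 3.27 in WT), and Sphkap, an anchor of protein kinase A (149 and 149 CPM in the APP libraries, 157 and 154 in the WT libraries). In these 2 rows 97.5% and 84.0% of the bases were exonic in other transcripts, and 0 complete introns were held. In contrast, only 7.54% of the row of Nktr, a cyclophilin with arginine and serine repeats, was shared, at 99.9 and 96.4 CPM in APP and 100.3 and 94.96 CPM in WT. The row of Cpa6, a carboxypeptidase, was 2.21% shared and took between 98.7% and 99.6% of the counts of its symbol. Per kilobase, among the 15 most abundant rows, Noct had the highest level (251 CPM per kilobase), then Gm43190 (204), Rpl27a (124) and Fgd4 (103), while Nktr had the lowest (10.9).

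**Figure D2:**
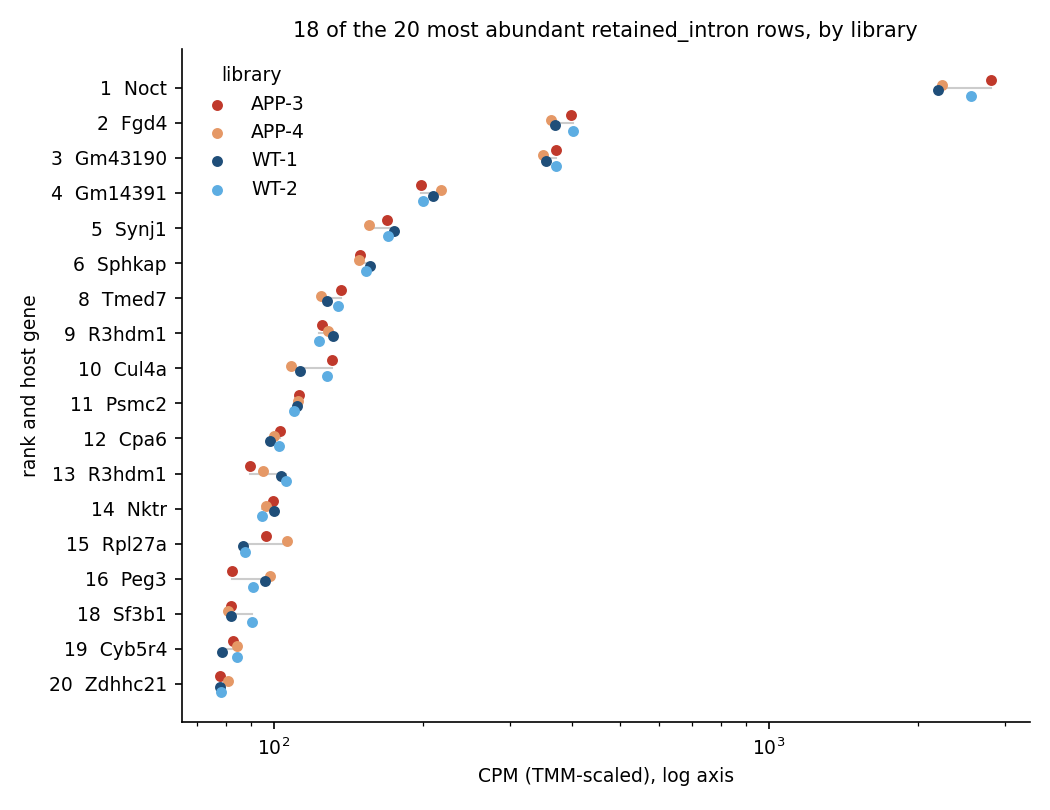
CPM on a log axis (x) of 18 of the 20 most abundant retained_intron rows, with rank and host gene on the y axis and 1 point per library. Noct stands alone, with 2197 CPM in its lowest library, and the points of APP and WT libraries interleave in most rows.

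The lowest members were close to the excluded rows. The last 3, of Dlg2, Entpd4 and Rbbp4, had 1709, 1709 and 1706 summed counts, and the next, of Mapk8, Zeb2 and Csmd2, had 1701, 1697 and 1697. The median member had 2933 summed counts. Every member had at least 188 counts in each library, so a minimum of 10 counts in every library removed 0 of them.

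To ask whether intron retention as a class differed between genotypes, the counts of the class were taken as a share of each library. Retained_intron rows took 2.34% and 2.33% of all counts in APP and 2.29% and 2.29% in WT, with both APP libraries above both WT libraries (exact two-sided permutation test, p = 0.333, the smallest that 2 against 2 allow). With the type taken from M21 the shares were 2.07% and 2.12% against 2.09% and 2.05%, and the groups overlapped (exact permutation p = 0.667). Without the mitochondrial genome in the denominator the shares were 2.62% and 2.71% against 2.63% and 2.62%, and the groups overlapped (exact permutation p = 0.667). The 300 took 1.24% and 1.19% in APP and 1.19% and 1.22% in WT (exact permutation p = 1), which is 52.3% of the counts of the class. Without Noct they took 0.956% and 0.966% in APP and 0.970% and 0.961% in WT, a difference smaller than the spread between libraries.

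Of the 300 rows, 2 were called between APP and WT, and both were lower in APP and came from Arpp21. That is 0.667%, where 0.85% of all 37539 rows were called, 0.0693% as lower and 0.781% as higher. Of the 9393 rows of any type with at least the counts of the last member, 0.724% were called. Over the 300 the log2 fold change was -0.0019 at the median, against 0.0071 over all rows, with 151 values below and 149 above 0. Its 5th and 95th percentiles were -0.20 and 0.19, against -0.63 and 0.77 over all rows. An unadjusted p below 0.05 was reached by 18 members, or 6.00%, 10 lower and 8 higher, where 9.43% of all rows reached it. Both APP libraries lay below both WT libraries in 53 members (17.7%, all rows 18.6%) and above them in 38 (12.7%, all rows 19.9%). The SE of the log2 fold change was 0.10 at the median (0.07 to 0.25). The 95% interval lay within a 1.5-fold change either way for 292 members and within a 1.2-fold change for 136.

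**Figure D3:**
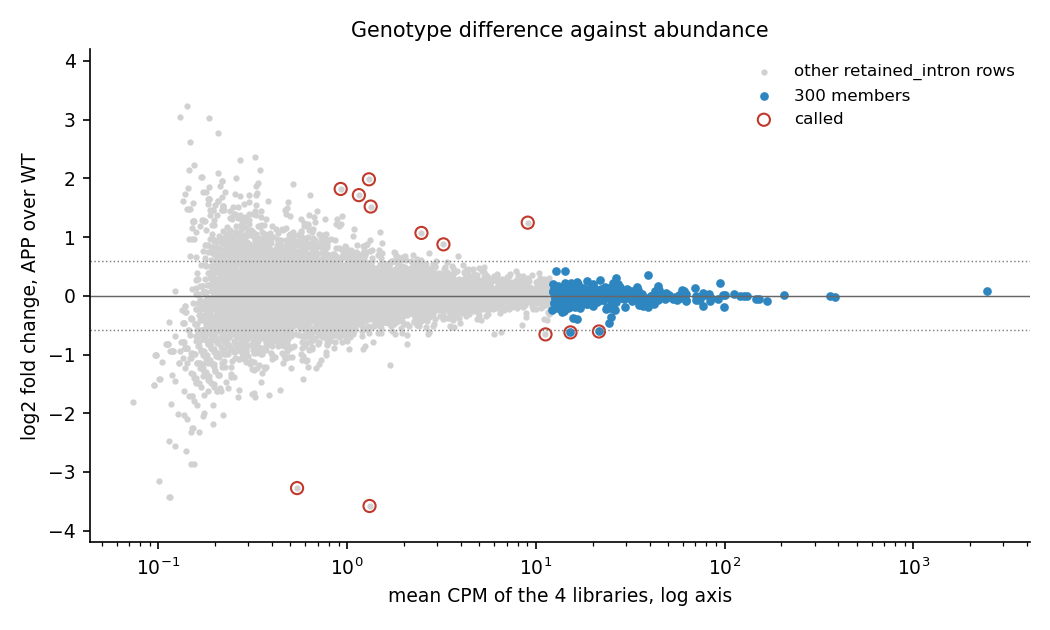
Log2 fold change of APP over WT (y axis) against mean CPM on a log axis (x axis) for the 7341 retained_intron rows, with the 300 members in blue and called rows circled in red. Dotted lines mark a 1.5-fold change, the 2 called members lie just below the lower line, and the scatter narrows as abundance rises.

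Arpp21 encodes a regulatory phosphoprotein that binds calmodulin and RNA and is abundant in the cortex and striatum. ENSMUST00000159432 (chr9:112065236-112234423, minus strand) had 464 and 563 counts in APP and 1145 and 926 in WT, or 16.1, 18.1, 26.0 and 26.1 CPM. It fell by 0.61 on the log2 scale (SE 0.10, adjusted p = 0.00484). ENSMUST00000159667 (chr9:112154463-112234841) had 336 and 384 counts in APP and 823 and 648 in WT, or 11.7, 12.3, 18.7 and 18.3 CPM, and it fell by 0.62 (SE 0.11, adjusted p = 0.00601). In both rows the APP libraries lay apart from the WT libraries without overlap. The remaining member, ENSMUST00000159183 (chr9:112182653-112187880), had 502, 728, 1226 and 1011 counts, or 17.4, 23.4, 27.8 and 28.5 CPM, with a log2 fold change of -0.46 (SE 0.12, adjusted p = 0.0989), and did not pass. Both calls were lost without WT-1, without WT-2 and without APP-3. Without WT-1 the 2 called rows had log2 fold changes of -0.61 and -0.61 with adjusted p = 0.20 and 0.25, and without WT-2 of -0.60 and -0.64 with adjusted p = 0.18 and 0.17, so the fold stayed while the p rose. Without APP-3 their log2 fold changes were -0.53 and -0.58, inside the 1.5-fold limit. Without APP-4 all 3 rows were called, with ENSMUST00000159183 at -0.69, whereas without APP-3 that row stood at -0.27 (adjusted p = 0.11).

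The other rows of the gene had values on the same side of 0. All 22 counted rows of Arpp21 had a log2 fold change below 0, from -1.01 to -0.28. Both APP libraries lay below both WT libraries in 20 of them, where 18.6% of all rows had them so. Rows of 1 gene share exons and come from the same mice, so they are not independent observations. Of the 22, 5 were called, where 0.0693% of all rows were called as lower. These were the 2 members, the retained_intron row ENSMUST00000161138 just outside the 300 (rank 326, log2 fold change -0.66, adjusted p = 0.0145) and 2 protein_coding rows, ENSMUST00000159055 (-0.76, adjusted p = 0.00399) and ENSMUST00000159451 (-0.80, adjusted p = 0.0232). The most abundant coding row, ENSMUST00000035085, had 104 and 124 CPM in APP and 162 and 157 CPM in WT (log2 fold change -0.48, SE 0.08, adjusted p = 0.00747) and passed the adjusted p but not the fold change. Summed over M21, Arpp21 had 298.1 and 385 CPM in APP and 494 and 481 CPM in WT (log2 fold change -0.51, SE 0.11, adjusted p = 0.0612). By sum the gene was therefore not called.

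The members' shares of Arpp21 were nearly even between genotypes. Of the M21 gene, ENSMUST00000159432 took 5.36% and 4.72% in APP and 5.27% and 5.43% in WT. ENSMUST00000159667 took 3.88% and 3.22% against 3.79% and 3.80%, and ENSMUST00000159183 took 5.80% and 6.10% against 5.64% and 5.93%. In 0 of the 3 did the groups separate by more than the spread between the APP libraries. In the share test by M21 gene, 0 of the 22 rows were called, where 0.0338% of 26646 rows were. With 22 rows, 0 calls is near that share and does not show that the shares were even. Sequence of 1 Arpp21 row, ENSMUST00000159183, was wholly exonic in other transcripts, and 59.2% and 63.2% of the 2 called rows was, so part of each count comes from reads that spliced Arpp21 RNA would also give. A noncoding gene on the opposite strand, 2900079G21Rik, overlaps both called rows, at 18, 17, 23 and 31 counts. How strand entered the counting is not given in the sources used here. Beside these values, 0 of the 10 cortical neuron genes were called (median -0.13 on the log2 scale), and the 6 striatal genes summed to 134 and 293 CPM in APP and 197 and 219 CPM in WT. The part of either in the Arpp21 values was not tested.

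**Figure D4:**
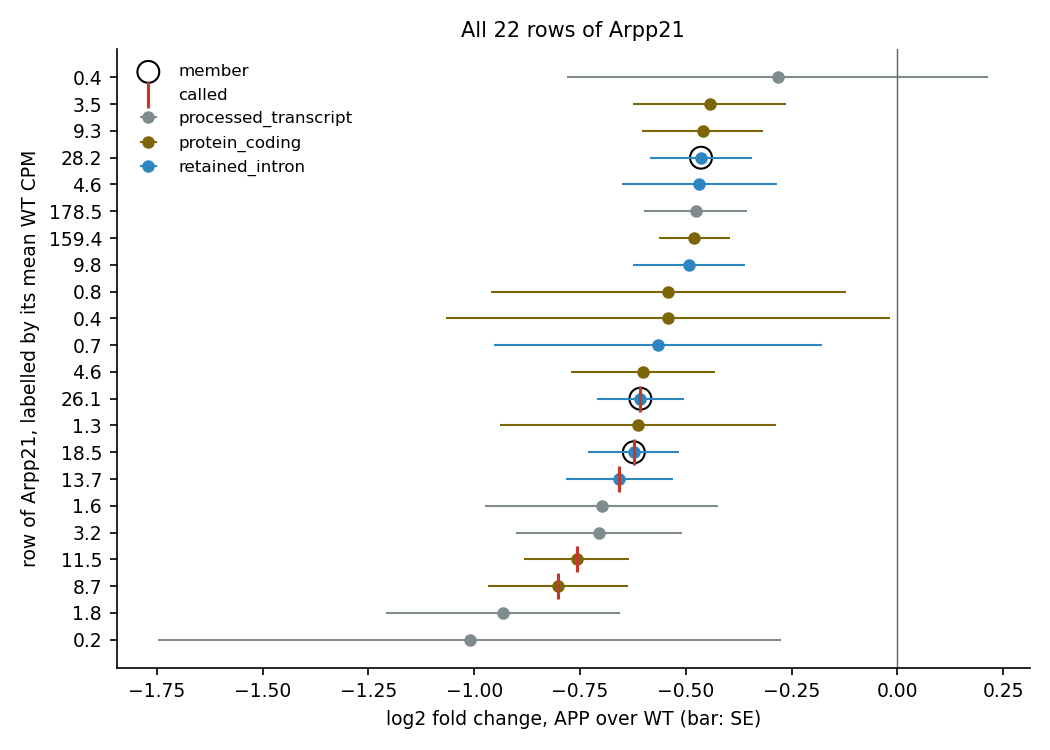
Log2 fold change of APP over WT with its SE (x axis) for the 22 rows of Arpp21, each labelled by its mean WT CPM (y axis) and coloured by deposited type. Open circles mark the 3 members, red ticks the 5 called rows, and every point lies left of 0.

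Arpp21 and R3hdm1, which encodes an RNA-binding protein with an R3H domain and gave 5 members, are the hosts of the genes Mir128-2 (chr9:112118636-112118711, minus strand) and Mir128-1 (chr1:128202361-128202430, plus strand). Both hairpins lie in introns, where 0 transcripts of the host have an exon, so no member row contains them. Their mature product is shared, and is given from RefSeq (GRCm38.p6) with the seed, bases 2 to 8, in capitals.
miR-128-3p: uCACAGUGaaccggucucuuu

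The 5 rows of R3hdm1 had log2 fold changes between -0.20 and -0.01, and 0 were called. The most abundant, ENSMUST00000185471, stood at 125 and 129 CPM in APP and 132 and 124 CPM in WT, and took 22.5% and 21.5% of the M21 gene in APP and 20.2% and 19.5% in WT. ENSMUST00000190288 had 89.6 and 95.2 CPM in APP and 104 and 106 CPM in WT (log2 fold change -0.18, SE 0.08, adjusted p = 0.45). Summed over the gene R3hdm1 had a log2 fold change of -0.15 (SE 0.07, adjusted p = 0.39). The miRNA itself was not measured in these libraries of long RNA. The pair of hosts was put side by side after the values of Arpp21 were seen.

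Among the other members, those with the smallest p-values did not pass the adjusted threshold. Lower in APP without overlap were rows of Ptprd, a receptor tyrosine phosphatase of synapse formation (13.7 and 13.7 CPM against 18.6 and 16.9, log2 fold change -0.38, SE 0.11, adjusted p = 0.15), and of Kalrn, a guanine nucleotide exchange factor of dendritic spines (20.3 and 23.6 CPM against 26.5 and 30.2, -0.37, SE 0.11, adjusted p = 0.16). A row of Mical2, an oxidase of actin filaments, had 13.0 and 15.4 CPM against 21.3 and 15.9 (-0.39, SE 0.14, adjusted p = 0.29), a value that went from -0.16 without WT-1 to -0.59 without WT-2. Kalrn and Ptprd summed over the gene had log2 fold changes of -0.18 and -0.12. For Kalrn 12 of 15 rows and for Ptprd 15 of 17 rows were below 0, and 0 rows of either were called.

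Higher without overlap were rows of Apod, a lipid-binding lipocalin of glia (49.1 and 39.3 CPM against 35.2 and 34.1, log2 fold change 0.35, SE 0.10, adjusted p = 0.17), and of Kcnn3, a calcium-activated potassium channel (14.5 and 18.4 against 13.7 and 10.8, 0.43, SE 0.14, adjusted p = 0.23). The Apod row is 91.5% exonic in other transcripts and the gene sum had a log2 fold change of 0.37. With a library left out the Apod row ran from 0.18 (without APP-3) to 0.50 (without APP-4), and the Kcnn3 row from 0.24 (without APP-4) to 0.61 (without WT-1). Beside the Apod values, the 8 oligodendrocyte genes summed to 1829 and 1597 CPM in APP and 1181 and 1311 CPM in WT, with APP-3 above APP-4 as in Apod, all 8 above 0 on the log2 scale (median 0.56), 1 called and none absent from a library. Their part in the Apod values was not tested.

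The row of Rpl27a, a protein of the large ribosomal subunit, deposited under the symbol Gm13981, stood at 96.7 and 106 CPM in APP and 86.9 and 87.4 in WT (log2 fold change 0.22, SE 0.08, adjusted p = 0.31). The row of Gas5, a host of small nucleolar RNAs, stood at 23.3 and 24.2 against 18.1 and 21.5 (0.26, SE 0.11, adjusted p = 0.42; 0.14 without WT-1 and 0.39 without WT-2), and that of Wsb1, a ubiquitin ligase adaptor, at 18.2 and 17.5 against 15.5 and 14.6 (0.24, SE 0.11, adjusted p = 0.48). Rows of the Y-linked genes Uty, a demethylase homologue (0.25, SE 0.11), and Eif2s3y, a translation initiation factor (-0.24, SE 0.10), had values of opposite sign, with adjusted p = 0.49 and 0.41. Rows of Efr3a, a membrane anchor of a lipid kinase (-0.28, SE 0.11, adjusted p = 0.39), and Gramd1a, a sterol carrier (-0.26, SE 0.11, adjusted p = 0.49), were lower without overlap and were not called.

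Genes of splicing and RNA binding were among the hosts, and 0 of their members were called, where 0.85% of all rows were. With 35 such members, 0 calls is near that share. The 6 lists were of SR proteins and SR-like factors, SR protein kinases, hnRNP proteins, other RNA-binding regulators, spliceosomal proteins, and export and decay factors. Together they held 35 members from 24 genes. Of these 25 had log2 fold changes above 0 and 10 below, with a median of 0.05 and extremes of -0.19 and 0.23. Among the 231 members on no list 105 were above and 126 below 0, with a median of -0.0090. An unadjusted p below 0.05 was reached by 0 of the 35, where 9.43% of all rows reached it. The lists were chosen with earlier results of these data known.

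The list of SR proteins, which bind exons and recruit the spliceosome, and of SR-like factors gave 10 members from 9 genes. Of these 8 were above and 2 below 0. Srsf5 led with 71.8 and 74.0 CPM in APP and 74.8 and 76.5 CPM in WT, and its row held introns of 201 and 1229 bases. Srsf11 followed with 39.9 and 47.0 against 47.1 and 44.0, then Rsrp1 with 47.0 and 41.0 against 39.2 and 43.6. The row of Srsf2 held 3 annotated introns, the longest of which spans the other 2, and that of Srsf3 held 2. The row of Srsf5 took 25.01% of its M21 gene in APP and 26.6% in WT, and that of Srsf2 28.2% and 27.6%.

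The kinases that phosphorylate SR proteins gave 4 members, 1 above and 3 below 0. The abundant row of Clk1 stood at 66.8 and 70.9 CPM in APP and 72.8 and 71.0 in WT, and took 36.9% and 37.1% of the gene. That of Clk4 stood at 30.4 and 31.3 against 28.5 and 30.8 CPM, and took 34.3% and 33.4% of the gene. These are the rows that hold the paired introns printed above. A shorter row of Clk1, at 13.4 ± 0.779 and 15.2 ± 0.441 CPM, held 0 complete introns, and that of Srpk1 held 2.

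The hnRNP proteins gave 4 members, 3 above and 1 below 0. Among them, the row of Hnrnpll stood at 24.1 and 27.1 CPM in APP and 27.4 and 27.5 CPM in WT, and that of Hnrnpl at 17.0 and 20.1 against 16.6 and 17.2. Among other RNA-binding regulators, 10 members from 5 genes were 8 above and 2 below 0, led by Rbm25 (64.9 and 58.2 CPM against 55.1 and 60.5) and Celf2 (48.6 and 60.1 against 56.6 and 53.1). Spliceosomal proteins and helicases gave 7 members, 5 above and 2 below 0. They included Sf3b1, a subunit of the U2 particle, at 82.0 and 80.8 CPM against 82.0 and 90.3, 3 rows of Tia1, and Ddx5, an RNA helicase, whose row held an intron of 82 bases and stood at 16.6 ± 1.69 and 14.2 ± 0.05 CPM. The list of exon junction, export and decay factors had 26 retained_intron rows and 0 members.

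Synaptic genes gave 10 members from 8 genes, 5 above and 5 below 0, with a median of 0.0050. They included rows of Snap25, a SNARE protein (52.0 and 63.2 CPM in APP, 60.1 and 53.8 in WT), and of Nsf, the ATPase that takes SNARE complexes apart (36.4 and 33.2 against 37.8 and 40.3). These rows were minor parts of their genes, at 3.17% and 2.83% for Snap25 and 6.08% and 6.36% for Nsf in APP and WT. Cytoskeletal genes gave 10 members from 5 genes, 6 above and 4 below 0, with 5 rows of the anchor protein ankyrin 2 (Ank2), between 11.1 and 36.2 CPM. Genes of glycolysis and energy supply gave 7 members, 3 above and 4 below 0, of Tpi1, Pfkp, Gpi1 and Slc25a3. Ribosomal and translation genes gave 5, 4 above and 1 below 0, with Rps20 at 43.6 and 50.3 CPM against 40.1 and 43.7. The App and tau list gave 1 member, Map2, at 29.2 and 43.1 against 35.6 and 34.96, and the endothelial list 1, Vwf.

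The lists of microglial, astrocyte, myelin, immediate-early and chaperone genes held 0 members. Yet 29 of the 53 genes on the microglial, complement and lysosomal list were called by sum and all 29 rose, as did 5 of 25 astrocyte genes and 2 of 27 myelin genes, while 2 of 19 immediate-early genes fell. The retained_intron rows of the microglial list were 11 in number, and all ranked below the 300. Of the 7041 rows outside the 300, 10 were called (0.142%). They were 7 higher, from the leukocyte phosphatase Ptprc (3 rows), Trem2, the microglial lipid receptor, Unc93b1, Nav1 and Slc38a6, and 3 lower, from Arpp21, Armc8 and Cd6. The rows of Ptprc, Unc93b1 and Trem2 belong to leukocyte and microglial genes, and the microglial sums stand above.

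The level of a row says little of splicing if the whole gene changes, so each member was set against its gene. For the 183 members whose symbol had at least 2 rows, the share of the symbol was 22.2% at the median (quartiles 8.74% and 40.4%), from 0.909% to 99.7%, with 33 above 50% and 53 under 10%. The shares of APP and WT differed by 0.651 percentage points at the median and by 5.62 at most, and by under 1 point in 121 members. The 2 APP libraries differed from each other by 1.19 points at the median and 7.75 at most, and the WT libraries by 0.67 and 8.31. The difference between genotypes is one between means of 2 libraries, and those within a genotype are between single libraries. With no effect the former is expected to be smaller, so these medians do not show whether shares differ. In the share test (edgeR's diffSpliceDGE), 0 of the 183 were called (lowest adjusted p = 0.937) and 0 had an unadjusted p below 0.05, where 0.0291% of 20587 rows were called and 4.49% had such a p. Without APP-4, 1 was called, a row of Syt1 (log2 difference -0.49, adjusted p = 0.000744). With limma's diffSplice on voom weights 0 were called and 7 had an unadjusted p below 0.05. With the M21 gene in place of the symbol 0 of 293 were called (0.0338% of 26646 rows) and 4 had such a p (4.56% of those rows). The 3 Arpp21 members, which include both called rows, have no symbol and were tested by M21 gene only.

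**Figure D5:**
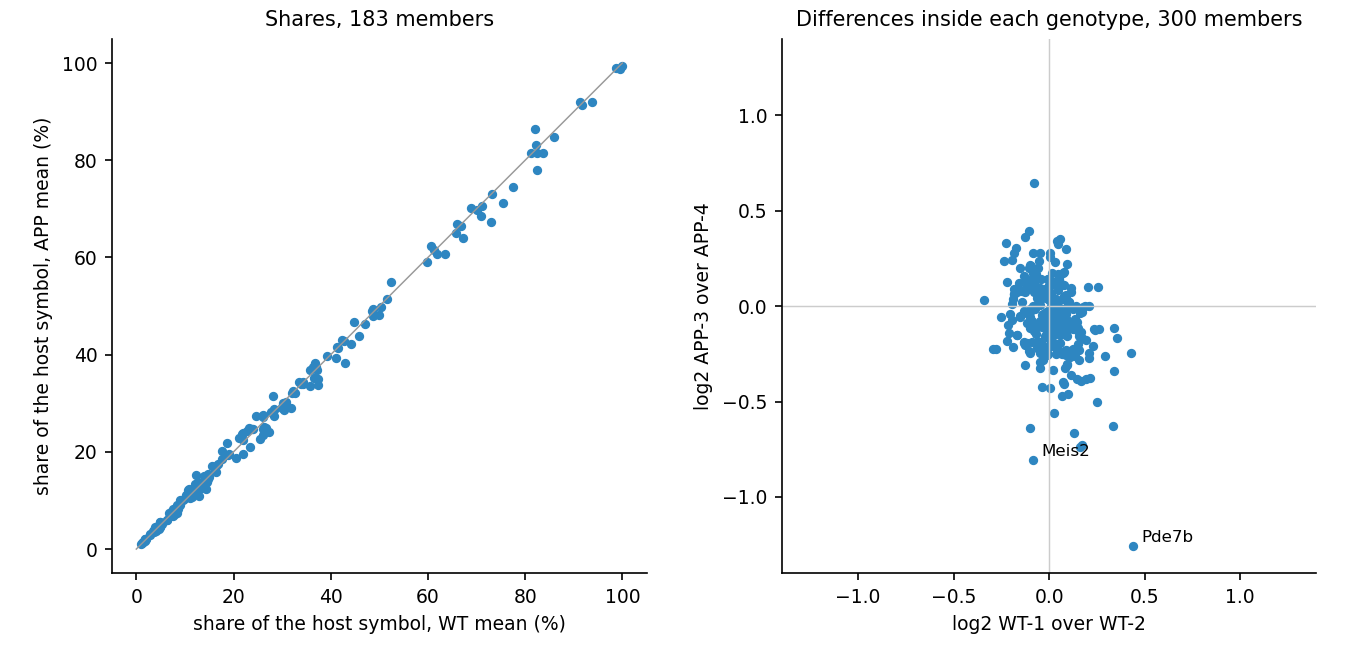
Left, mean share of the host symbol in APP (y axis, %) against WT (x axis, %) for the 183 members with at least 2 rows, with the line of equality. Right, log2 ratio of the APP libraries (y axis) against that of the WT libraries (x axis) for the 300 members, where the vertical scatter (SD 0.21) exceeds the horizontal (SD 0.12).

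Wide gaps in share, chosen for their size and so given as description, included rows lower and higher in APP. ENSMUST00000143972 of Tma16, a translation machinery factor, took 66.7% and 68.0% of its symbol in APP and 72.4% and 73.6% in WT. The row of Serf2, a small protein that promotes amyloid aggregation, whose symbol joined rows of 2 M21 genes, took 38.9% and 37.7% against 42.5% and 43.6%. That of Pld1, a phospholipase D, took 70.6% and 71.7% against 74.6% and 76.1%, and that of Vwf, von Willebrand factor, took 84.1% and 88.9% against 80.6% and 83.6%. Unadjusted p-values of the share test for these 4 lay between 0.18 and 0.56. Both APP shares lay below both WT shares in 30 members and above them in 33, or 16.4% and 18.03% of the 183, where 16.4% and 17% of the 20587 rows tested by share had them so.

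For 12 members the symbol had no protein_coding row, and 8 of these were the only row of their symbol, so their share was 100% by construction. They were Sphkap, Trove2, Krr1, Cdh18, 1 row of Zfp26, Neil3, Dlc1 and Arsa. By M21 gene, Sphkap took 64.9% in APP and 65.4% in WT. In 5 members the symbol joined rows of more than 1 M21 gene, as in Gm13981, which holds Rpl27a. Summed by symbol, 0 of 169 host genes were called (1.32% of 14645 symbols), and the values ran from -0.23 to 0.44 with the lowest adjusted p = 0.109 and 18 at an unadjusted p below 0.05 (edgeR's quasi-likelihood test), which 13.9% of all symbols reached, and DESeq2 also called 0. Without APP-3, 1 was called (Kcnn3, 0.60), and without APP-4 another (Syt1, 0.79). Summed by M21 gene, 0 of 248 were called (0.974% of 18387 genes), with 26 at an unadjusted p below 0.05.

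Members differed more between the APP mice than between the WT mice. The log2 ratio of APP-3 to APP-4 had a median of -0.06 and an SD of 0.21 over the 300, and that of WT-1 to WT-2 a median of 0.01 and an SD of 0.12. The same SDs were 0.22 and 0.11 over the 9393 rows of any type with at least as many counts. The APP libraries were over 1.5-fold apart in 8 members and the WT libraries in 0. The widest was a row of Pde7b, a cAMP phosphodiesterase, at 6.53 CPM in APP-3 and 15.6 in APP-4 (log2 ratio -1.26), with 15.1 and 11.2 CPM in WT. Then came rows of Meis2, a homeobox factor (10.6 and 18.6 CPM against 10.6 and 11.3 in WT, log2 ratio -0.81), and of Gpi1, glucose-6-phosphate isomerase (25.02 and 41.8 against 39.5 and 35.3, -0.74). In all 3 the gap between the APP libraries exceeded the gap between the group means. Without APP-3 the Meis2 row was called as higher (0.77) and without APP-4 the Pde7b row as lower (-1.02), while 0 of these 3 were called with all libraries.

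The 6 striatal genes were uneven between the same libraries. They summed to 134 CPM in APP-3 and 293 in APP-4, with Adora2a, an adenosine receptor, at 2.69 and 13.7 CPM and Drd2, a dopamine receptor, at 0.86 and 6.26 CPM, and 0 of the 6 were absent from a library. Their part in the spread of the members was not tested. Members of low and high exonic content were also set side by side. The log2 ratio of APP-3 to APP-4 had a median of -0.10 over the 108 members under 20% exonic. Over the 42 members over 80% exonic its median was 0.02. The medians of WT-1 to WT-2 were 0.01 and -0.01. Over all 300 members the APP ratio had an SD of 0.21, and whether it goes with the content of the row was not tested. Between genotypes the medians of the log2 fold change were 0.01 and -0.04 in these sets, and 0.02 and -0.01 in the members with and without a complete intron.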

How the data were processed

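Strand-specific, ribosomal RNA-depleted, paired-end libraries of mouse cortex (2 APP, 2 WT, 12 months) were analysed. Per the labels and the study's methods, the authors discarded read pairs mapping to ribosomal RNA, aligned the rest to Ensembl mouse RNA with FANSe2, mismatches allowed, and deposited raw read counts per transcript. The Ensembl release is not given in the sources used here. The submitters' processing notes name CASAVA 1.8 and edgeR. The deposited fold change, CPM mean, p-value and FDR columns, which hold the authors' comparison, and 4 columns of log2 CPM were not used. Reads carry no molecular identifiers.

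The 300 members and all lists were chosen with earlier results of these data known, and the lists include some from an earlier reading of the same files. Counts were tested in R 4.3.3 with edgeR 4.0.16 (quasi-likelihood, TMM, no covariate), limma 3.58.1 and DESeq2 1.42.0, over all rows, each row having at least 10 summed counts. Prior degrees of freedom were 13.7 at a common dispersion of 0.00875. Libraries of a group are separate animals, and with 2 per group the p-values rest on the spread shared across rows. The tests were also run on counts simulated from the fitted dispersion. Such counts follow the model, so that run cannot show whether the tests hold for these mice. Introns and exons came from GENCODE M21, where an intron had to be flanked by at least 3 bases of the exon on each side, and similarity from blastn 2.17.0 (at least 93% identity over at least 100 bases, same strand), thresholds set after the data were seen. Errors are SDs over 2 libraries, and 95% intervals are 1.96 SE each way. Named were the 15 most abundant rows, called rows, the largest share changes, list members, rows at the threshold and rows with the widest gaps between replicates. Rows with an unadjusted p below 0.05, R3hdm1 and the Arpp21 and Clk introns were added after their values were seen. Some items that this rule names are not reported here. M21 genes in place of symbols were an added alternative.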

Additional observations from a re-analysis of the deposited data

How the results depend on the processing

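Both Arpp21 calls held under edgeR's exact and likelihood ratio tests, DESeq2, library totals, TMM over coding rows and a minimum of 10 counts in every library, with 2 members called in each. At a fold change of at least 2, 0 were called. Leaving out a library gave 0 to 4 calls. These were 0 without WT-1 and without WT-2 (adjusted p from 0.17 to 0.25 for the 2 rows, at log2 fold changes of -0.64 to -0.60), 1 without APP-3, which was Meis2 (0.77, higher), with the Arpp21 rows at -0.53 and -0.58, inside the 1.5-fold limit but at adjusted p = 0.000235 and 0.000356, and 4 without APP-4, which were the 3 Arpp21 rows and Pde7b (-1.02). Host genes called numbered 0 to 1 with a library left out (Kcnn3 without APP-3, Syt1 without APP-4), and shares called 0 to 1 (Syt1 without APP-4). The excess of retained_intron counts in APP was 0.0442 percentage points, 0.0260 by M21 type, where the groups overlapped, and 0.0402 to 0.0482 with a library left out.

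The median log2 fold change of the members ran from -0.03 to 0.01 with a library left out and was 0.04 over all retained_intron rows. Of 35 named rows, 11 changed sign with a library left out, from values near 0 in all but Meis2 (-0.042 to 0.77) and Pde7b (-1.02 to 0.24). The others were Noct (-0.084 to 0.24), Fgd4 (-0.088 to 0.049), Gm43190 (-0.050 to 0.029), Gm14391 (-0.048 to 0.086), Tmed7 (-0.078 to 0.053), R3hdm1 ENSMUST00000185471 (-0.050 to 0.041), Cul4a (-0.15 to 0.13), Cpa6 (-0.010 to 0.050) and Nktr (-0.031 to 0.048). With all libraries, only Nktr changed sign, to -5.93e-05 under the minimum of 10 counts. The cause was not tested.

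The mice are separate animals and no pairing of APP with WT mice is given, so no paired analysis was run. The APP columns carry numbers that the labels of the APP samples do not, so they were used only as members of their group. With 2 mice per group a single value cannot reach p below 0.333 by permutation, and the SE of a member's log2 fold change reached 0.25.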

Other observations

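Among retained_intron rows below the 300 most abundant, the largest fall was in a row of Armc8, a subunit of a ubiquitin ligase complex, with 7 and 5 counts in APP and 113 and 81 in WT (log2 fold change -3.58, SE 0.36, adjusted p = 4.20e-05, edgeR's quasi-likelihood test). Its share of the gene differed too (log2 difference -2.48, adjusted p = 6.86e-06, diffSpliceDGE by M21 gene). By that test 0 of the 293 members tested were called, where 0.0338% of 26646 rows were, so 0 is near that share. A row of Slc38a6, an amino acid transporter, had 41 and 66 counts in APP and 26 and 17 in WT, and its share also differed (1.19, adjusted p = 0.00116). The 3 rows of Ptprc rose (log2 fold change 1.25 to 1.98), while their shares of the gene were not called (adjusted p = 0.935 for each), and the Trem2 row rose by 1.07 with its share not called (adjusted p = 0.715).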
